A study of Mus musculus with 36 samples.

Results

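The hearts of mice whose Akt1 transgene had been on for 6 weeks and then off for 2 weeks were compared with hearts taken before the transgene was ever induced. The members are the 3 hearts titled as 6 weeks on and 2 weeks off and the 4 control hearts, 7 of the 18 hearts in the series. Each heart's RNA went on both Affymetrix chips of a set of 2, named 430A and 430B, so the comparison uses 14 of 36 arrays. All mice carried both transgenes, Tet-myrAkt1 and αMHC-tTA, and are labelled male. The controls were 12 weeks old and uninduced, the repressed mice were 20 weeks old, and 3 hearts of mice aged 18 weeks, induced for 6 weeks, serve as context. Age rose with treatment and the series has no uninduced group of 20 weeks, so age and the history of the transgene cannot be told apart. The αMHC promoter drives the transactivator in heart muscle cells, and no heart without the transgenes was analysed here. Each array came from an individual mouse, and p-values rest on the spread between the animals.

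Akt1 is a protein kinase that acts downstream of insulin and growth factor receptors, and its myristoylated form is held at the membrane, where it is active. In heart muscle it promotes growth of the cells and represses, through FoxO transcription factors, genes of atrophy and autophagy. The transactivator tTA switches a Tet-controlled transgene on, and tetracycline-type drugs switch it off again. The question put by this design is what remains different from baseline after long induction and recovery.

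Values are MAS5 signals, linear probe-set brightness scaled to a common level on every array of a chip. Differences are log2 values of the signal plus an offset of 10% of the chip's trimmed mean, which understates changes of dim probe sets. They were tested with limma in 1 fit per chip over all 18 arrays. A probe set was called at a Benjamini-Hochberg adjusted p under 0.05 within its chip, and every adjusted p given here is from that test. Signals of different probe sets are not comparable with each other, because hybridisation differs between probes.

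Several hearts stood apart before any comparison was made. Hearts 3 and 4 of the control group, labelled male like all others, gave Xist signals of 2518 and 2170 against 9.60 and 32.2 in hearts 1 and 2. Their Eif2s3y signals, from a Y-linked gene, were 2.80 and 3.60 against 430.3 and 483, so these hearts do not match their label. Repressed heart 1 was the lowest of its group, by over 2-fold beyond the next heart, in 49 of the 301 lower calls on chip 430A and in 49 of the 163 on chip 430B. For repressed hearts 2 and 3 those numbers were 1 and 1 among the calls of the first chip and 4 and 4 among those of the second. On chip 430A the 18S ribosomal RNA signal was 276 ± 78.0 in control hearts (SD, n = 4) and 98.7 ± 4.16 in repressed hearts (SD, n = 3; two-sided exact permutation p = 0.0571, 0.137 adjusted over 8 tests; the smallest p here is 0.0286). The ratio of 3′ to 5′ Actb signal, a measure of RNA integrity, was 1.38 ± 0.165 (SD, n = 4) and 1.10 ± 0.134 (SD, n = 3) on that chip (exact permutation p = 0.0857, 0.137 adjusted). Heart 3 at 6 weeks on had an Actb ratio of 3.71 on chip 430A, against 1.36 and 1.24 in the others of its group. The part of these differences in the results below was not tested beyond the fits given beside them. All 12 cardiomyocyte markers were measured, with a summed signal on chip 430A of 259425 to 343309.5 in control and 218073 to 261660.3 in repressed hearts.

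After 2 weeks off, 18 of 40 matrix genes and 2 of 4 measured skeletal muscle markers were above baseline. Below it were 6 of 20 clock genes and 4 of 8 tubulins, and many lists that differed at 6 weeks on had few or 0 calls. In repressed hearts 851 of 33084 probe sets passed the test (2.57%), with 387 above baseline (1.17%) and 464 below it (1.40%). At 6 weeks of induction 4361 of the same probe sets had been called against the same 4 control hearts (13.2%). Between repressed and 6-week induced hearts 3605 were called (10.9%). The comparisons share hearts and are not independent of each other. In 823 of the 851 called probe sets the signals of the 3 repressed and 4 control hearts did not overlap, against 14.4% of all probe sets. The calls were made from these same hearts, so this count is a description and no further support.

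With 1 probe set per gene, 397 of 14650 genes were called (2.71%), 220 higher (1.50%) and 177 lower (1.21%), and the median log2 difference of all genes was 0.00. After 6 weeks of induction 15.7% of genes were called against baseline, 7.58% higher and 8.14% lower, with a median of -0.05. From there to 2 weeks off 12.7% were called, 7.19% higher and 5.53% lower. Of the probe sets at 6 weeks on 21.4% (chip 430A) and 5.85% (chip 430B) were called, and from there to 2 weeks off 19.1% and 3.61%. By chip, 551 of 15565 probe sets were called on 430A (3.54%), 250 higher (1.61%) and 301 lower (1.93%). On 430B 300 of 17519 were called (1.71%), 137 higher (0.782%) and 163 lower (0.930%). Without the control hearts with Xist signal the counts were 200 and 76, and without repressed heart 1 they were 259 and 107. From the arrays of the compared groups alone they were 341 and 29. That setting ended the calls of Ddx6, Zbtb16, Pik3r1, Cat, Mlycd, Sdhc, Ndufb3, Cdk1 and Ube2c. On chip 430A it also ended those of Psmd1, Npm1, Btg2, Gstm1, Scd2, Col4a2, Lox, Fstl1 and Per2. On chip 430B it ended those of Cthrc1, Col4a4, Arhgap26, Bckdk, Togaram2, Nfia, Nipbl, Rabepk, Stk38 and Mybpc2. Of 96 called probe sets named below, 35 held under every alternative setting, 45 held without those controls and 64 without repressed heart 1. Of 94 called genes named below 59 had several probe sets, and in 47 of these at least 1 was not called. The split by direction depended on scaling. On chip 430A 45.4% of calls were higher, and with arrays scaled to a common median 58.2% were, out of 328 calls. On chip 430B the shares were 45.7% and 68.2%, and that scaling moved the median of all its probe sets from -0.04 to 0.08.

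**Figure D1:**
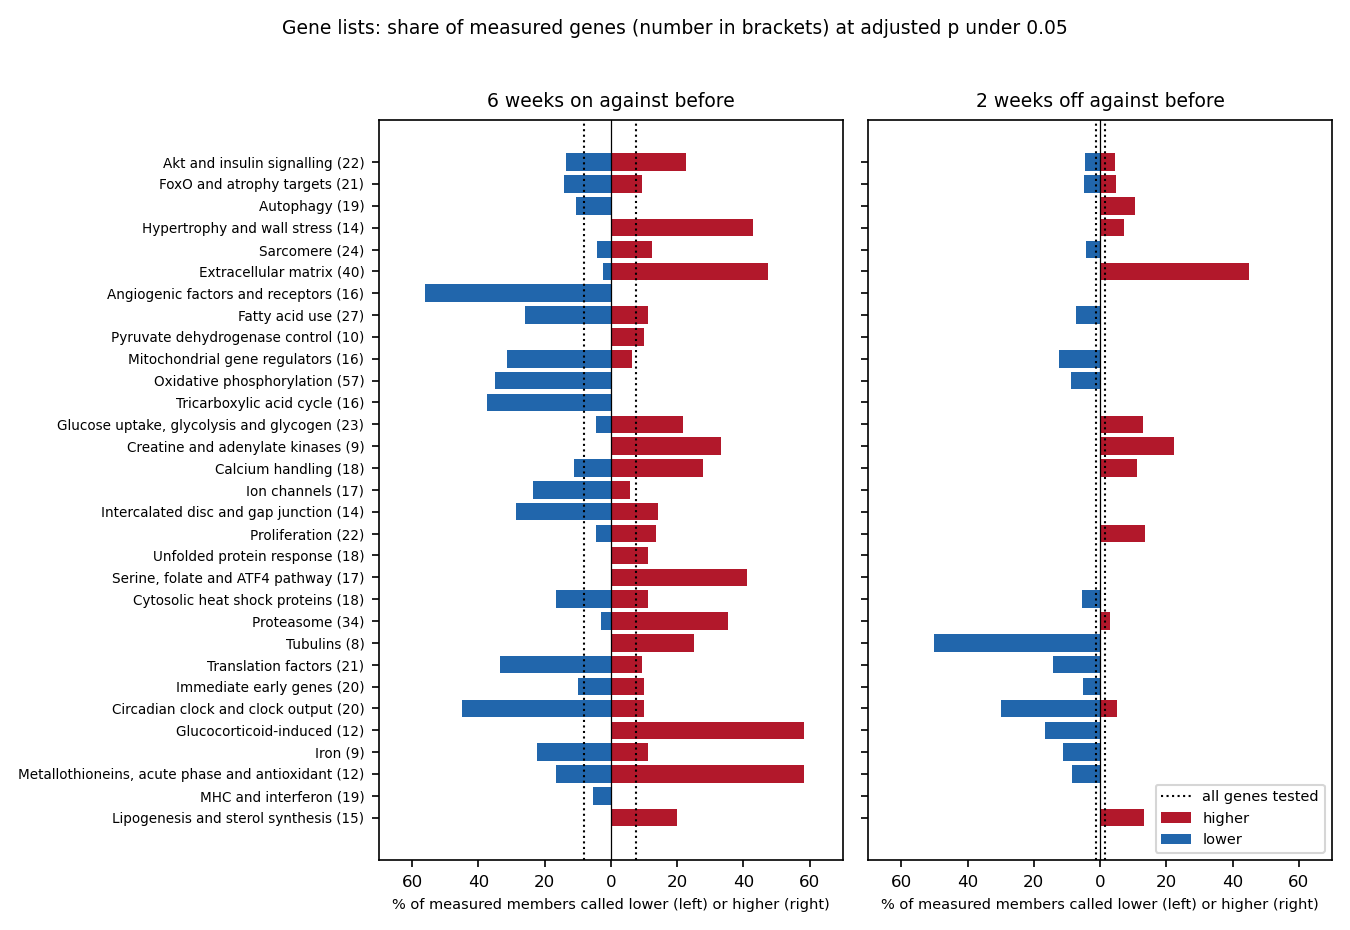
Share of the measured genes of each list called higher (red, right) or lower (blue, left) against hearts before induction, at 6 weeks on (left panel, 3 hearts) and at 2 weeks off (right panel, 3 hearts), both against the same 4 control hearts, with dotted lines at the share over all genes. At 2 weeks off 18 of 40 extracellular matrix genes are higher, 4 of 8 tubulins and 6 of 20 clock genes are lower, and the angiogenic, tricarboxylic acid cycle and ATF4 lists have 0 calls.

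Akt1 signal fell between 6 weeks on and 2 weeks off and was then not called against baseline. On the probe set that differed at 6 weeks on, signals were 514, 517, 508 and 652 in the 4 control hearts, 2931, 2312 and 1851 at 6 weeks on and 789.5, 633 and 837 at 2 weeks off. Repressed heart 2 lay within the control range, and hearts 1 and 3 lay above it. The log2 difference from baseline was 0.42 ± 0.174 (SE; adjusted p = 0.191), with a 95% interval of 0.06 to 0.79, and against 6 weeks on it was -1.57 ± 0.186 (SE; adjusted p = 3.19e-05). Of 3 Akt1 probe sets 0 were called against baseline, the others lying at -0.05 and -0.33. Signals of those others at 6 weeks on are not given here, so the fall described rests on the 1 probe set above. Whether these probe sets read the transcript of the transgene, that of the mouse gene or both was not tested.

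Genes of the extracellular matrix had more higher calls than any other list. The list holds collagens, glycoproteins and enzymes that fibroblasts and other cells secrete, and 18 of its 40 measured members were higher and 0 lower, against 1.50% and 1.21% of all genes. Its median log2 difference was 0.68, where the median of all genes was 0.00. At 6 weeks on 19 members were higher and 1 lower with a median of 0.62, and 13 members were higher at both times and 5 at 2 weeks off without a call at 6 weeks. Between 2 weeks off and 6 weeks on 2 were higher and 4 lower with a median of -0.04. Without the control hearts with Xist signal 8 members were called higher, and without repressed heart 1 there were 11.

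Postn encodes periostin, a matricellular protein of remodelling tissue. Its signal was 794, 662, 423 and 900.5 in control hearts, 4513, 6688 and 4054 at 6 weeks on and 4583, 4411 and 2932 at 2 weeks off. Every repressed heart was above every control heart, and hearts 1 and 2 lay within the range of the induced hearts. The log2 difference from baseline was 2.45 ± 0.229 (SE; adjusted p = 6.36e-06), and against 6 weeks on it was -0.34, with a 95% interval of -0.86 to 0.17. Postn was called under all 19 alternative settings.

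Cilp, a matrix protein that binds growth factors, gave signals on chip 430B of 460.0, 190.2, 210.0 and 442 in control and 1547, 1779 and 1121 in repressed hearts, a log2 difference of 2.23 ± 0.285 (SE; adjusted p = 7.34e-04). The induced hearts read 2689, 3451 and 3964, so the repressed hearts lay between the other groups without overlap. Thbs4, thrombospondin 4, gave 189, 34.9, 27.3 and 30.3 in control and 987, 421 and 409.8 in repressed hearts, a log2 difference of 2.52 ± 0.457 (SE; adjusted p = 0.00456). Control heart 1 was far above the other controls, yet below each repressed heart. The Thbs4 call ended without the control hearts with Xist signal. Cthrc1, a secreted collagen triple helix repeat protein, rose on chip 430B from 53.9, 13.1, 12.9 and 8.06 to 213, 168 and 96.2, a log2 difference of 2.43 ± 0.402 (SE; adjusted p = 0.00375). Its call also ended without those control hearts, and from the arrays of the compared groups alone. Control hearts 2, 3 and 4 read near or below the chip's offset of 12.3, so the size of the Cthrc1 rise depends on it, at 1.75 to 3.09 over the alternatives.

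Fibrillar collagens of types I, III and V were among the higher genes. Col1a1, a chain of type I collagen, read 1492, 824, 858 and 1521 in control and 3674, 3048 and 2127 in repressed hearts, a log2 difference of 1.31 ± 0.257 (SE; adjusted p = 0.00725). Col1a2, its partner chain, had 1.18 ± 0.227 (SE; adjusted p = 0.00681) on its brightest probe set and 1.90 on another. Type III collagen, Col3a1, had 0.78 ± 0.156 (SE; adjusted p = 0.00859), and the type V chains Col5a1 and Col5a2 had 1.88 and 1.38. Col1a1, both Col1a2 probe sets, Col3a1 and Col5a2 were called under all 19 alternatives. Col5a1 was named from the probe set with its largest change, a dim one, while its brightest was not called (0.51, adjusted p = 0.0868) and another was at 0.73 (adjusted p = 0.00991). The call of the dim one ended without the control hearts with Xist signal.

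Network and basement membrane collagens were among the calls as well. Col8a1, a short-chain collagen of vessel walls and remodelling tissue, was at 1.25, Col6a2 at 0.78 and the basement membrane chain Col4a2 at 0.91 on the log2 scale. Col4a4, also of basement membranes, read 109, 35.8, 13.6 and 27.8 in control and 244, 175 and 230.3 in repressed hearts on chip 430B, where the 6-week hearts read 19.9, 86.3 and 188. Its log2 difference from baseline was 2.19 ± 0.460 (SE; adjusted p = 0.0185), and 1 of its 3 probe sets was called. The Col4a2, Col6a2, Col8a1 and Col4a4 calls ended without the control hearts with Xist signal, and those of Col4a2, Col6a2 and Col4a4 also without repressed heart 1, repressed heart 3 or control heart 3. Without repressed heart 2 or with a common median Col4a2 and Col6a2 were not called, and the former ended without control heart 4, the latter without control heart 2. From the arrays of the compared groups alone the Col4a2 and Col4a4 calls ended.

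Among the adhesive glycoproteins, tenascin C, Tnc, read 57.9, 88.2, 85.4 and 74.1 in control and 514, 398 and 138 in repressed hearts. Repressed heart 3 was much closer to the controls than the others were. The log2 difference was 1.52 ± 0.372 (SE; adjusted p = 0.0279), and the call ended without the control hearts with Xist signal, without any 1 control heart and without repressed heart 1 or 2. Fibronectin, Fn1, had a log2 difference of 1.14 ± 0.248 (SE; adjusted p = 0.0143), and at 6 weeks on it was not called (0.58, adjusted p = 0.102). Lox, the enzyme that crosslinks collagen and elastin, was higher by 1.01, elastin itself, Eln, by 0.97, the proteoglycan biglycan, Bgn, by 0.66, and the membrane-bound protease Mmp14 by 0.97. Fbln2, a fibulin, was higher by 0.68 and Fstl1, a secreted follistatin-like protein, by 0.98. Of these, Bgn was called under all 19 alternatives, and the Lox, Eln, Mmp14, Fbln2 and Fstl1 calls ended without the control hearts with Xist signal. Leaving out repressed heart 1 ended the Fn1, Eln, Fbln2 and Fstl1 calls, repressed heart 2 those of Fn1 and Eln, repressed heart 3 that of Fbln2, control heart 3 those of Eln, Fbln2 and Fstl1, control heart 1 those of Eln and Fbln2, and control heart 2 or 4 that of Fbln2.

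**Figure D2:**
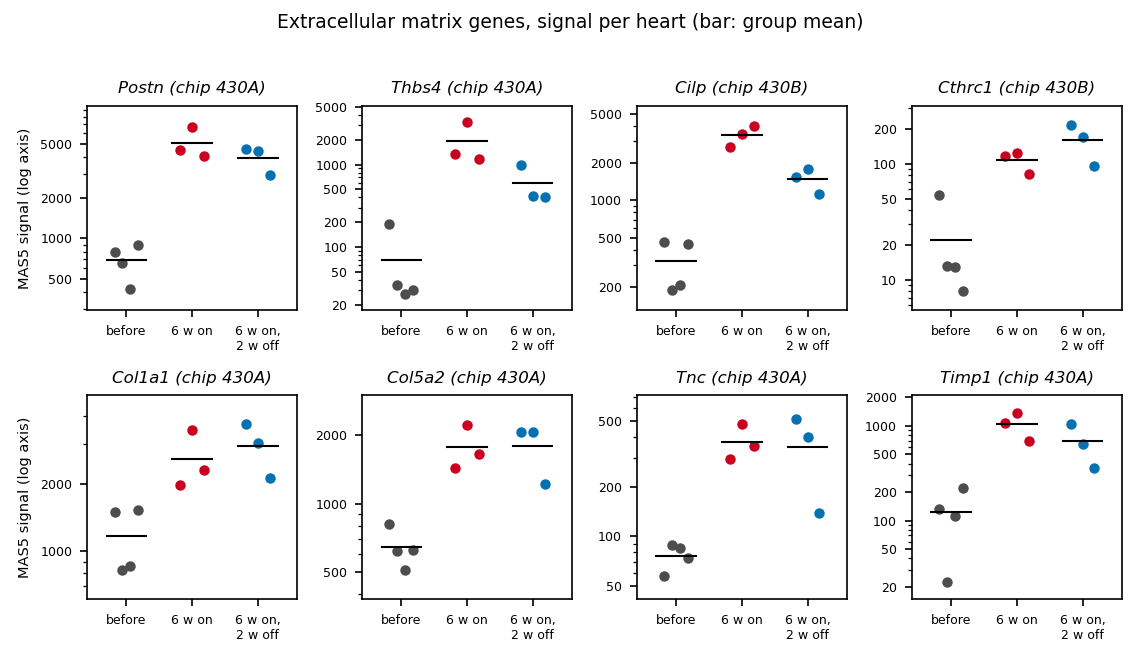
Signal per heart on a log axis for 8 secreted genes, 7 of them of the matrix and Timp1 an inhibitor of matrix proteases, in 4 hearts before induction (grey), 3 at 6 weeks on (red) and 3 at 2 weeks off (blue), with a bar at each group mean. In each panel the 3 repressed hearts lie above all 4 control hearts, for Postn at 2932 to 4583 against 423 to 900.5.

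Timp1, an inhibitor of matrix proteases, was the sole member of the hypertrophy and wall stress list that was called. It read 134, 22.7, 112 and 223 in control, 1078, 1374 and 701 at 6 weeks on and 1053, 649 and 361 in repressed hearts, a log2 difference from baseline of 2.13 ± 0.420 (SE; adjusted p = 0.00792). The call ended without repressed heart 1, whose signal was the highest of its group.

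Most markers of fibroblasts were not called beside the matrix genes. Of 15 measured, 2 were higher, both of them collagens that the matrix list also holds, and 1 was lower, Gsn, with a median log2 difference of 0.25. Summed over the 13 markers other than Col1a1 and Col1a2, the signal on chip 430A was 39872 to 48816 in control and 32431 to 39035 in repressed hearts. Without Gsn the sum over the other 12 was 24963 to 30413 and 26226 to 29235, so the repressed hearts lay within the control range, and 10 of all 15 markers had a difference above 0. Gelsolin, Gsn, an actin-severing protein, read 14021, 14466, 14908 and 18403 in control and 6654, 9801 and 6205 in repressed hearts, a log2 difference of -1.05 ± 0.168 (SE; adjusted p = 0.00210), and 3 of its 5 probe sets were lower. In whole-heart RNA a change in the number of cells of a type and in their RNA content cannot be told apart. Macrophage and monocyte markers had 0 calls of 17 with a median of 0.38, and their sum was 8062 to 11457 in control and 10547 to 14933 in repressed hearts, with the dim Ccr2 and Itgam below the filter. The part of these cells in the matrix result was not tested.

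Some genes of skeletal muscle and of calcium release were above baseline. Myl1, a light chain of fast skeletal myosin, read 2435, 1477, 2109.5 and 3491 in control, 24316, 16994 and 20717 at 6 weeks on and 12022, 13581 and 15661 in repressed hearts. The repressed hearts lay between the other groups and overlapped with neither. The log2 difference was 2.56 ± 0.228 (SE; adjusted p = 3.84e-06), a ratio of mean signals of 5.78, and it was called under all 19 alternatives. Mybpc2, the fast skeletal form of myosin-binding protein C, read 2220.2, 522, 617 and 749 in control and 3595, 2789 and 2792 in repressed hearts on chip 430B. The 6-week hearts read 1286, 1223 and 1318, and it was not called there. Its log2 difference at 2 weeks off was 1.81 ± 0.321 (SE; adjusted p = 0.00632), and the call ended without the control hearts with Xist signal. The Mybpc2 call also ended from the arrays of the compared groups alone.

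Of 18 calcium handling genes 2 were higher, Ryr1 and Ryr2, and 0 lower, against 1.50% and 1.21% of all genes. The median of that list was 0.19, and 8 of its members lay below 0. Ryr1 encodes the calcium release channel of skeletal muscle. Its signals were 156, 33.3, 89.9 and 69.8 in control, 2355, 1098 and 2109 at 6 weeks on and 531, 430.5 and 974 in repressed hearts, a log2 difference of 2.34 ± 0.392 (SE; adjusted p = 0.00286), called under all 19 alternatives. The cardiac channel Ryr2 read 4092, 2837, 3913 and 3237 in control and 8789, 7991 and 7293 in repressed hearts, a log2 difference of 1.19 ± 0.138 (SE; adjusted p = 1.36e-04). The 6-week hearts read 6243, 5457 and 4597, so all 3 repressed hearts exceeded all 3 induced hearts as well. Against 6 weeks on the Ryr2 difference was 0.57 ± 0.147 (SE; adjusted p = 0.0119). Among the 12 cardiomyocyte markers Ryr2 alone had a difference from baseline above 0, and 11 lay below.

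Triadin, Trdn, which anchors the release channel to calsequestrin, differed between its probe sets. The probe set with its largest change read 357, 46.3, 205 and 71.2 in control and 594, 710.1 and 1122 in repressed hearts, a log2 difference of 2.15 ± 0.473 (SE; adjusted p = 0.0153). Another was higher by 0.89, and the other 4 of its 6 were not called, with differences of -0.23 to 0.08. Sh3gl3, an endophilin of membrane traffic, rose from 34.7, 168, 34.4 and 54.4 to 477, 233 and 767, a log2 difference of 2.14 ± 0.397 (SE; adjusted p = 0.00553). Both the Trdn and the Sh3gl3 call ended without the control hearts with Xist signal, and that of Trdn also without control heart 2 or repressed heart 3.

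Of 12 skeletal muscle markers 4 were measured, of which Myl1 and Mybpc2 were called higher and 0 lower. The other 2 had differences below 0, the lowest at -0.70. Over all genes 1.50% were higher and 1.21% lower. On chip 430A 9 of the 11 markers present were below the filter on dim probe sets, among them Myh1, Myh2, Myh4, Tnnt3 and Actn3, which define skeletal fibres. Tcap, the titin cap protein of the sarcomere, was the sole lower gene of 24 sarcomere members, at 25613, 18315, 20077 and 19483 in control and 13634, 10913 and 14912 in repressed hearts, a log2 difference of -0.66 ± 0.156 (SE; adjusted p = 0.0225). The Tcap call ended with a common median, without the control hearts with Xist signal and without control heart 1 or 3 or repressed heart 1 or 2. The sarcomere list had a median of -0.12, or 0.08 with quantile normalization.

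Several genes that had fallen during induction overlapped with the controls. Irs1, the insulin receptor substrate, read 1389, 1147, 1130.1 and 1030.5 in control, 304, 418 and 391 at 6 weeks on and 1068, 1207 and 1085 in repressed hearts. All repressed hearts lay within the control range. The log2 difference from baseline was -0.06 with a 95% interval of -0.36 to 0.24, against -1.54 at 6 weeks on. Myom2, a protein of the sarcomere's M-band, read 6706, 3588, 4809 and 3492 in control, 955, 1095 and 714 at 6 weeks on and 5315, 3923 and 2875 in repressed hearts. Its difference from baseline was -0.19 with a wide interval of -0.92 to 0.53, and against 6 weeks on it was 2.05 ± 0.372 (SE; adjusted p = 0.00114).

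Angiogenic factors and receptors had 0 calls of 16 at 2 weeks off and a median of 0.04, against 0 higher and 9 lower with a median of -0.63 at 6 weeks on. Between 2 weeks off and 6 weeks on 7 of them were higher. Of all genes 2.71% were called at 2 weeks off and 15.7% at 6 weeks on. Vegfa, a main growth factor for endothelium, read 707, 870.0, 1335 and 1104 in control, 535, 459 and 498 at 6 weeks on and 1169, 1184 and 1235 in repressed hearts. The repressed values lay inside the control range, and the 95% interval of the difference was -0.06 to 0.62. Vegfb, a related factor abundant in heart, read 4496, 3904, 3988 and 4701 in control and 3320.3, 3582 and 3994 in repressed hearts, with an interval of -0.49 to 0.02.

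The tricarboxylic acid cycle list had 0 calls of 16 and a median of 0.03, against 6 lower and a median of -0.22 at 6 weeks on. Slc2a4, the insulin-regulated glucose transporter, read 3698, 2692, 3052 and 2982 in control, 2130.5, 1776 and 2014 at 6 weeks on and 3377, 3235 and 4008 in repressed hearts, so it passed from below the controls to within or above their range. Ppargc1a, a coactivator of mitochondrial gene expression, had a difference from baseline of -0.27 with an interval of -0.65 to 0.12, where it had been -1.13 at 6 weeks on. Klf15, a Krüppel-like factor that limits growth of heart muscle, was at -0.14 with an interval of -0.66 to 0.38. Ppara and Kcnip2, named whatever they did, were not called, at -0.67 (adjusted p = 0.180) and -0.32 (adjusted p = 0.538). Other Ppara probe sets lay at 0.08 and -0.03, and another of Kcnip2 at -0.36. Fbxo32, the atrophy ubiquitin ligase atrogin-1, differed by probe set: its brightest was at -0.45 and not called, and 1 of 3, on chip 430B, was higher by 1.24 (adjusted p = 0.00689).

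Lists with many higher genes at 6 weeks on had few calls at 2 weeks off, when 2.71% of all genes were called, against 15.7% at 6 weeks. Genes of serine and folate synthesis and other targets of the transcription factor ATF4 had 0 calls of 17 and a median of 0.02, against 7 higher and a median of 0.48 at 6 weeks. Glucocorticoid-induced genes had 0 higher and 2 lower of 12 with a median of -0.15 and a range of -1.68 to 0.67, against 7 higher and a median of 1.20 at 6 weeks. The 2 lower genes were Zbtb16, a zinc finger transcription factor, at -1.68, and Klf9, a Krüppel-like factor, at -0.94. Both calls ended without the control hearts with Xist signal, that of Zbtb16 also without repressed heart 3 and that of Klf9 without repressed heart 1. Proteasome subunits had 1 higher, Psmd1 at 0.51, and 0 lower of 34, against 12 and 1 at 6 weeks. The Psmd1 call ended with a common median, without the control hearts with Xist signal and without control heart 3 or 4 or repressed heart 1 or 3.

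The hypertrophy and wall stress list had 1 higher, Timp1, of 14 and a median of 0.50, against 6 higher and a median of 0.76 at 6 weeks. Over all genes 1.50% were higher at 2 weeks off and 7.58% at 6 weeks. Uncalled members of the list included Ankrd1 at 0.85, Ccn2 at 0.83, Acta2 at 0.59, Rcan1 at 0.42 and Mt1 at 0.36. Fhl1 was at 0.35, Acta1 at 0.32, Xirp1 at 0.24 and Myh6 at -0.34. Myh7, the slow myosin heavy chain that rises in stressed adult hearts, read 4474, 1559, 999.8 and 893 in control, 6316, 7636 and 2951 at 6 weeks on and 3195, 1625 and 956 in repressed hearts, a log2 difference from baseline of 0.10 with an interval of -0.92 to 1.12. Nppb, which encodes the natriuretic peptide BNP, had 0.78 with an interval of -0.07 to 1.64. Nppa, which encodes the atrial peptide ANP, read 4213, 2341, 1459 and 26347 in control and 17964, 10656 and 6579 in repressed hearts, with an interval of -0.26 to 2.80. Control heart 4 was the highest of all 7 for Nppa, and its atrial light chain Myl4 read 16377 against 312 to 369 in the other controls. The sum of 10 atrial markers on chip 430A was 5165 to 74025 in control and 11066 to 52665 in repressed hearts, and 0 of the 10 were called. These intervals are too wide to show that stress genes were at baseline.

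Some genes that fell during induction were still low. Doc2g, a protein related to regulators of vesicle fusion, read 3698, 2724, 2231 and 3165 in control, 227, 216 and 282 at 6 weeks on and 1259, 1074 and 630.2 in repressed hearts, a difference from baseline of -1.56 ± 0.233 (SE; adjusted p = 0.00135). Gnb3, a G protein subunit, read 806, 1153, 481 and 597 in control, 112, 76.8 and 76.5 at 6 weeks on and 274, 245 and 264 in repressed hearts, a difference of -1.31 ± 0.251 (SE; adjusted p = 0.00663). For both genes the repressed hearts lay between the other groups without overlap, and the calls held under all 19 alternatives. Ptgds, named whatever it did, was not called, at -0.36 (adjusted p = 0.431) on its brighter probe set and -0.67 (adjusted p = 0.302) on another. Gstm1, a glutathione transferase, was lower by -0.48 on the log2 scale, where it had been -1.04 at 6 weeks on. Its call ended with a common median, without the control hearts with Xist signal and without control heart 2 or 3 or repressed heart 2 or 3.

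**Figure D3:**
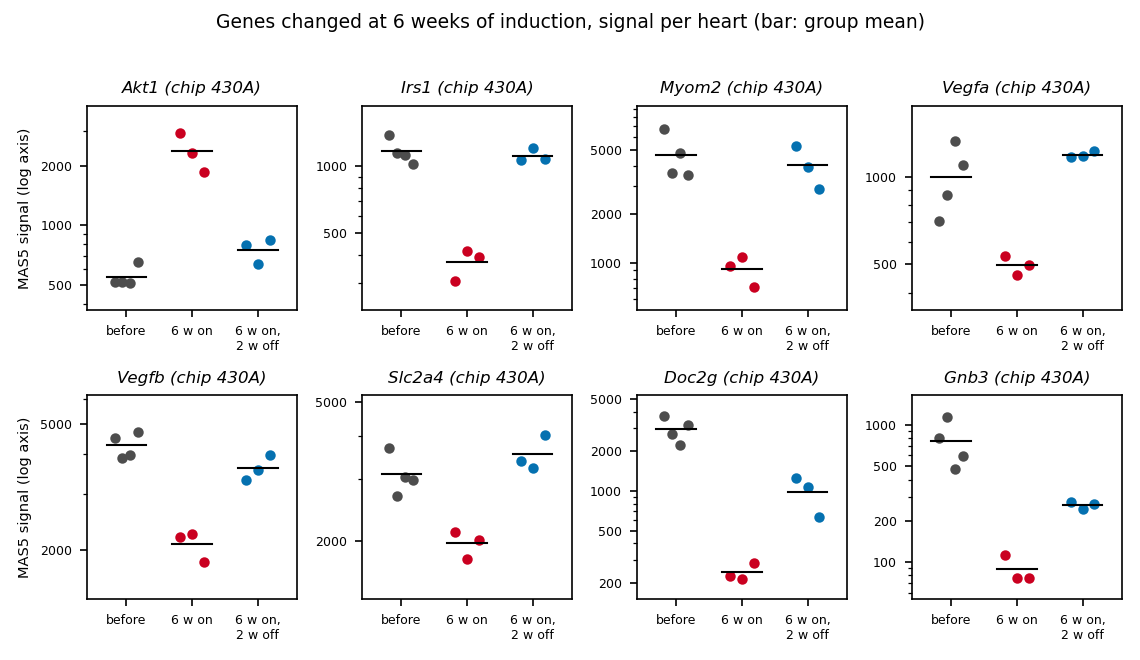
Signal per heart on a log axis for 8 genes that differed at 6 weeks of induction, in 4 hearts before induction (grey), 3 at 6 weeks on (red) and 3 at 2 weeks off (blue), with a bar at each group mean. Irs1 and Vegfa repressed hearts lie within the control range, while Doc2g and Gnb3 lie below all controls and above all induced hearts.

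Of 57 measured nuclear genes of oxidative phosphorylation 5 were lower and 0 higher, where 1.21% of all genes were lower. The median difference was -0.22, and 50 of the 57 lay below 0. Of the 12 cardiomyocyte markers 11 lay below 0, with a median of -0.31, or -0.02 with quantile normalization, and their part in these values was not tested. At 6 weeks on 20 were lower with a median of -0.24. Ndufb10, of complex I, read 9004, 8839, 8854 and 8605 in control and 4958, 5258 and 4387 in repressed hearts, a difference of -0.86 ± 0.148 (SE; adjusted p = 0.00323), called under all 19 alternatives. It had not been called at 6 weeks on (-0.39, adjusted p = 0.0637). Ndufv1, of the same complex, was at -0.56, Cox8b of complex IV at -0.69, Sdhc of complex II at -0.58 and Ndufb3 at -0.49. Ndufv1 was called on 1 of 3 probe sets, the others at -0.28 and -0.33, and Sdhc on 1 of 2, the other at -0.15. Tfb2m, a mitochondrial transcription factor, was lower by -0.59, and Nrip1, a nuclear receptor corepressor, by -1.38, on 1 of 6 probe sets, the others lying at -0.65 to 0.40. With arrays scaled to a common median 1 subunit was called and the median was -0.16, and with quantile normalization it was -0.06 with 35 of 57 below 0. That scaling to a common median ended the calls of Ndufv1, Cox8b, Sdhc, Ndufb3 and Tfb2m. Without repressed heart 1 the list had 2 lower members, Cox8b, Sdhc and Ndufb3 no longer being called, nor was Tfb2m, and without repressed heart 3 the Ndufv1, Cox8b, Sdhc and Ndufb3 calls ended. Control heart 1 or 2 decided the Sdhc and Ndufb3 calls and control heart 4 that of Ndufb3, while the control hearts with Xist signal decided those of Ndufv1 and Tfb2m.

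Genes of lipid droplets and fatty acid use were lower in 2 of 27 cases, with a median of -0.10, or 0.05 with quantile normalization. Over all genes 1.21% were lower and 1.50% higher. Plin5, the droplet protein perilipin 5, read 1202, 1183, 1152 and 1236 in control and 611, 513 and 464 in repressed hearts, a difference of -1.11 ± 0.189 (SE; adjusted p = 0.00302). Mlycd, malonyl-CoA decarboxylase, which removes an inhibitor of fatty acid import into mitochondria, was at -0.62 ± 0.142 (SE; adjusted p = 0.0193). Lipid synthesis was higher in 2 of 15 cases: Fasn, fatty acid synthase, read 230.5, 251, 364 and 566 in control and 1041, 3519.5 and 855 in repressed hearts, a difference of 1.99 ± 0.442 (SE; adjusted p = 0.0168), and the desaturase Scd2 was at 0.71. Repressed heart 2 was the highest for Fasn, and the call ended without it or without control heart 2. The Mlycd and Scd2 calls ended with a common median, without the control hearts with Xist signal and without repressed heart 3, that of Mlycd also without repressed heart 2 and that of Scd2 without repressed heart 1 or control heart 1, 2 or 3. Adipocyte markers had 0 calls of 5 measured and a median of 0.70, and their sum on chip 430A was 2223 to 3757 in control and 2314 to 7264 in repressed hearts. The part of fat tissue in the Fasn result was not tested.

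Of 23 genes of glucose uptake, glycolysis and glycogen 3 were higher and 0 lower, with a median of 0.12 and 8 members below 0. Of 9 genes in the creatine and adenylate kinase list 2 were higher and 0 lower, with a median of 0.09 and 3 members below 0. Over all genes 1.50% were higher. Gys1, glycogen synthase of muscle, read 992, 636, 871 and 1068 in control and 1939.6, 1326 and 2086 in repressed hearts, a difference of 0.96 ± 0.197 (SE; adjusted p = 0.00969). Ppp1r3c, which targets a phosphatase to glycogen, was at 0.91, and the pyruvate kinase Pkm at 0.49. Ckb, the brain-type creatine kinase, read 1288, 1216, 918 and 1113 in control, 3923, 3500.5 and 3562 at 6 weeks on and 2356, 1999.8 and 2924 in repressed hearts, a difference of 1.06 ± 0.162 (SE; adjusted p = 0.00164). Gamt, which makes creatine, read 316, 302, 291 and 328 in control and 567, 551 and 721 in repressed hearts, a difference of 0.88 ± 0.134 (SE; adjusted p = 0.00164). The Ckb and Gamt calls held under all 19 alternatives. Without the control hearts with Xist signal 1 of the 3 glycogen and glycolysis calls, Gys1, held, and with quantile normalization that list had 5 calls. The Gys1 and Ppp1r3c calls ended without repressed heart 1 or 3, that of Ppp1r3c also without repressed heart 2 or control heart 3, and that of Pkm without repressed heart 3 or control heart 2 and with a common median.

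Cell cycle genes had 3 higher and 0 lower of 22, against 1.50% and 1.21% of all genes, with a median of 0.33. Mcm6, of the replication helicase, read 13.5, 24.5, 16.8 and 20.5 in control, 109, 34.1 and 109 at 6 weeks on and 142, 218 and 182 in repressed hearts, a difference of 1.73 ± 0.316 (SE; adjusted p = 0.00474). All control values lay below the offset, so the size of that difference depends on it. Ube2c, a ubiquitin-conjugating enzyme of mitosis, was at 1.70, and Cdk1, the mitotic kinase, at 1.24. The Cdk1 call held under 7 of 19 alternatives and ended without control heart 1, 2 or 3 or any 1 repressed heart. Without the control hearts with Xist signal 1 member was called, as the Ube2c and Cdk1 calls ended, and with quantile normalization there were 5.

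Autophagy genes had 2 higher and 0 lower of 19, with a median of 0.11. FoxO and atrophy targets, Gabarapl1 among them, had 1 higher and 1 lower of 21, with a median of 0.09. Over all genes 1.50% were higher and 1.21% lower. Gabarapl1, a protein of the autophagosome membrane, read 1948, 1658, 1520.5 and 1977 in control, 1913, 1909.7 and 1490.0 at 6 weeks on and 3215, 2926 and 4003 in repressed hearts, a difference from baseline of 0.91 ± 0.164 (SE; adjusted p = 0.00454). Sqstm1, the autophagy receptor p62, read 5657, 5577, 5314 and 5843 in control and 8436, 7949 and 10403 in repressed hearts, a difference of 0.66 ± 0.151 (SE; adjusted p = 0.0194). Both genes were also high 2 days after repression, with Gabarapl1 at 2188 to 3071 and Sqstm1 at 8348 to 9149.6. Each was called on 1 of 2 probe sets, the other at 0.42 for Gabarapl1 and at 0.14 for Sqstm1. In the Akt and insulin signalling list 1 gene was higher and 1 lower of 22, with a median of 0.04. Grb10, an adaptor that dampens insulin receptor signalling, was at 0.70 ± 0.146 (SE; adjusted p = 0.0112), on 1 of 3 probe sets, the others at 0.04. Pik3r1, the regulatory subunit of PI3-kinase, was at -1.13 ± 0.289 (SE; adjusted p = 0.0348), on 1 of 4 probe sets, where the repressed hearts read 61.0, 249.9 and 299.6, and without repressed heart 1 it was at -0.62. The Sqstm1, Grb10 and Pik3r1 calls ended without the control hearts with Xist signal. Repressed heart 3 decided the Sqstm1 and Grb10 calls, repressed heart 1 and control heart 3 those of Sqstm1 and Pik3r1, and control heart 1 or 2 that of Pik3r1.

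Several clock genes were lower and Arntl was higher. The circadian clock is a loop in which BMAL1, encoded by Arntl, and CLOCK bind E-box elements and drive the Per genes and Ciart, whose products feed back on them, while Dbp, Hlf and Tef act on D-box elements. Of 20 measured clock genes 1 was higher and 6 lower, against 1.50% and 1.21% of all genes, with a median of -0.36. At 6 weeks on 2 were higher and 9 lower, with a median of -0.30. With the time of day of collection not given in the sources used here, its part in these values was not tested. Without the control hearts with Xist signal 3 members were lower.

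Arntl read 125, 190.1, 39.8 and 73.9 in control and 469, 399 and 324 in repressed hearts, a difference of 1.59 ± 0.252 (SE; adjusted p = 0.00197), on 1 of 2 probe sets. Dbp, a transcription factor under direct control of the clock, read 3049, 3065, 3027 and 2446 in control and 1192, 459.5 and 658 in repressed hearts, a difference of -1.94 ± 0.366 (SE; adjusted p = 0.00615). Hlf, of the same family, read 1076, 952, 1535 and 1243 and 292, 400.0 and 506, a difference of -1.48 ± 0.223 (SE; adjusted p = 0.00141). For each of these genes the groups did not overlap, and the Dbp and Hlf calls held under all 19 alternatives.

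Ciart, a repressor of the BMAL1 and CLOCK pair, read 381, 455, 334 and 383 in control and 165, 133 and 62.4 in repressed hearts on chip 430B, a difference of -1.68 ± 0.301 (SE; adjusted p = 0.00684). Per1, a core repressor, read 827, 921, 838 and 879.8 in control and 457, 293 and 457 in repressed hearts, a difference of -1.04 ± 0.229 (SE; adjusted p = 0.0158). The 6-week hearts read 1238, 1463 and 1233 for Per1, above all controls, though it was not called there (adjusted p = 0.0841). Its difference from 6 weeks on was -1.61 ± 0.245 (SE; adjusted p = 3.23e-04). Per2 was at -1.13 ± 0.257 (SE; adjusted p = 0.0193) and Per3 at -1.13 ± 0.235 (SE; adjusted p = 0.0110), and the Per1, Per2 and Per3 calls ended without the control hearts with Xist signal. Without repressed heart 2 the Per1 and Per2 calls ended, and without repressed heart 1 or 3 or control heart 3 that of Per2.

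Other members were not called. Nr1d1, a repressor of Arntl, had a difference of -0.23 with an interval of -0.51 to 0.05, and its relative Nr1d2 -0.58 (adjusted p = 0.0574). Tef was at -0.49 and Clock at 0.20. These were named after their values were seen.

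To show the elements behind those names, the 250 bases before the RefSeq start (GRCm38.p6) of 3 lower genes are printed 5′ to 3′ on the gene's strand. Capitals mark each E-box (CACGTG) or D-box (TTATGTAA) found on either strand. These 3 are the lower genes that had a match, and Dbp, Hlf and Per2 were not among the matches. Ciart lies at chr3:95882229-95882478 on the minus strand, Per1 at chr11:69098699-69098948 on the plus strand and Per3 at chr4:151044666-151044915 on the minus strand.
Ciart: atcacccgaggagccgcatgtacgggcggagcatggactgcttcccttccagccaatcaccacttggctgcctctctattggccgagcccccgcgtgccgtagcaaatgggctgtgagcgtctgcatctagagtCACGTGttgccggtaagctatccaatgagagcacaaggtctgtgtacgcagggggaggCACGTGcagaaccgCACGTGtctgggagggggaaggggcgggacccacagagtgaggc
Per1: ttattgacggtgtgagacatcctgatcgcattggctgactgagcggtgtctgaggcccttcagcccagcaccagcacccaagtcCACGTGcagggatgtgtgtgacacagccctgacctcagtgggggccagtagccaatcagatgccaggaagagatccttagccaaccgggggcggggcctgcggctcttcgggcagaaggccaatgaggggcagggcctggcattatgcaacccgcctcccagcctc
Per3: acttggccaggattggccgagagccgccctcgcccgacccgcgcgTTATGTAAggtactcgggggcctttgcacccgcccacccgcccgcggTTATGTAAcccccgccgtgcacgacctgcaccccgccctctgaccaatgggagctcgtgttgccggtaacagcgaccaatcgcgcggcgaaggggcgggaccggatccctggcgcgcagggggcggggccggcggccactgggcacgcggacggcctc
The Ciart window holds 3 E-boxes, starting 116, 58 and 44 bases before the start, the Per1 window holds 1 at 166, and the Per3 window holds 2 D-boxes at 205 and 158. The E-box was present in 6.02% of 32851 promoters and in 5 of 18 clock genes with an entry, the uncalled Tef, Cry1 and Bhlhe41 among them. The D-box was present in 0.819% of all promoters and in 1 of the 18. The shares over all are per promoter, while a clock gene counts with a match in any of its promoters. The 2 are therefore unlike measures. A match describes the letters and shows neither binding nor a cause.

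**Figure D4:**
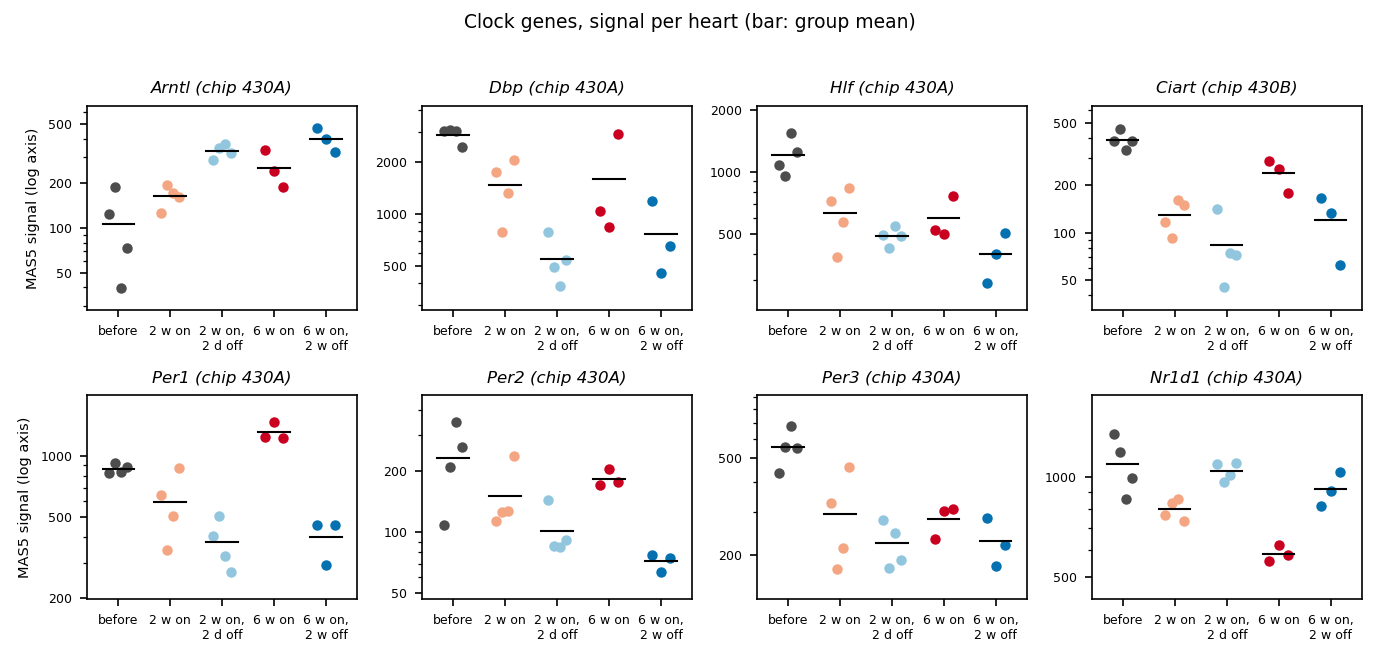
Signal per heart on a log axis for 8 clock genes in all 5 groups: 4 hearts before induction, 4 at 2 weeks on, 4 after 2 weeks on and 2 days off, 3 at 6 weeks on and 3 after 6 weeks on and 2 weeks off, with a bar at each group mean. The 3 hearts at 2 weeks off lie above all controls for Arntl (324 to 469 against 39.8 to 190.1) and below them for Dbp, Hlf, Ciart, Per1, Per2 and Per3, while Nr1d1 overlaps with the controls.

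Other probe sets were lower, or higher, in repressed hearts than in both control and induced hearts. The other repressed group of the series, 4 hearts with 2 weeks of induction and 2 days of repression at 14 weeks and 2 days of age, is given beside them here. Of the 464 probe sets called lower at 2 weeks off, 81 (17.5%) had all 7 repressed hearts below all 11 other hearts, a pattern shown by 0.653% of all 33084. Of the 387 called higher, 70 (18.1%) had all 7 above, against 0.731% of all. The calls used 7 of these 18 hearts, so the shares are a description.

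Psmd6, a subunit of the proteasome's regulatory particle, was lower on 1 of 2 probe sets. On that probe set it read 1085, 728, 858 and 632 in control, 966, 1584 and 1745 at 6 weeks on and 88.6, 95.5 and 86.8 in repressed hearts. At 2 days off the range was 51.3 to 91.9. The difference from baseline was -2.62 ± 0.213 (SE; adjusted p = 1.33e-06), with means 9.15-fold apart. The other Psmd6 probe set, brighter at a mean of 2286 in control and 2618 in repressed hearts, was not called (0.19, adjusted p = 0.371).

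Tubulins form microtubules, and 4 of 8 measured were lower and 0 higher, against 1.21% and 1.50% of all genes, with a median of -0.57. At 6 weeks on 2 were higher and 0 lower, with a median of 0.06. Tuba4a read 11632, 10011, 9207 and 9814 in control, 6612, 6652 and 6756 at 6 weeks on and 2430.0, 2076 and 1792 in repressed hearts, a difference of -2.25 ± 0.181 (SE; adjusted p = 1.33e-06). At 6 weeks on this probe set was already lower than in controls, by -0.60 (adjusted p = 0.0239). Its brightest probe set was at -1.70, and both were called under all 19 alternatives. Tubb4b read 3778, 3873, 3754 and 3519 in control and 1185, 1514 and 1299.9 in repressed hearts, a difference of -1.46 ± 0.165 (SE; adjusted p = 1.12e-04) on 1 of 5 probe sets, the brightest. Tuba8 was at -1.05 and the centrosomal Tubg1 at -0.70. The Tuba8 and Tubg1 calls ended without the control hearts with Xist signal, leaving 2 tubulins, and also without repressed heart 1. That of Tuba8 ended without repressed heart 3 too.

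Tfrc, the transferrin receptor that imports iron, read 1511, 872, 993 and 752 in control, 1546, 1592 and 1555 at 6 weeks on and 468, 501 and 356 in repressed hearts. The 6-week hearts were above all controls and the repressed hearts below all of them. The difference from baseline was -1.10 ± 0.194 (SE; adjusted p = 0.00364) and that at 6 weeks on 0.62 ± 0.194 (SE; adjusted p = 0.0273). Plin5, given above, read 1189.8 to 2159 at 6 weeks on and 369 to 686 at 2 days off. Hip1r, which links clathrin coats to actin, read 526, 688, 512 and 517 in control and 121, 182 and 119 in repressed hearts, a difference of -1.69 ± 0.231 (SE; adjusted p = 7.23e-04) on 1 of 3 probe sets. Its induced hearts, at 198 to 371 (2 weeks on) and 360.2 to 455 (6 weeks on), also lay below all controls.

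On chip 430B Ptprg, a receptor-type tyrosine phosphatase, read 452, 172, 150.3 and 222 in control and 6.25, 10.1 and 9.02 in repressed hearts, the largest fall on that chip among called probe sets with 1 gene symbol, at -3.53 ± 0.391 (SE; adjusted p = 2.98e-04). All 3 repressed values lay below the chip's offset of 12.3, so the size of that fall depends on it, at -4.57 to -2.55 over the alternatives. The other 3 Ptprg probe sets were not called, with differences of -0.65 to 0.07. Cyp26b1, which breaks down retinoic acid, read 418, 202, 268 and 492 in control, 83.2, 121 and 235 at 6 weeks on and 56.3, 35.7 and 46.6 in repressed hearts, a difference of -2.55 ± 0.408 (SE; adjusted p = 0.00368). Arhgap26, a GTPase-activating protein, went the other way: it read 10.9, 18.7, 21.9 and 6.98 in control, 19.2, 33.9 and 14.4 at 6 weeks on and 41.4, 153 and 122 in repressed hearts, a difference of 2.02 ± 0.409 (SE; adjusted p = 0.0154). At 2 days off it read 158 to 302. Its control values of 10.9 and 6.98 lay below that offset, and its difference ran from 1.38 to 2.67 over the alternatives. From the arrays of the compared groups alone its call ended. The Arhgap26 call ended without the control hearts with Xist signal and without repressed heart 2 or 3, while the Ptprg and Cyp26b1 calls held under all 19 alternatives.

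**Figure D5:**
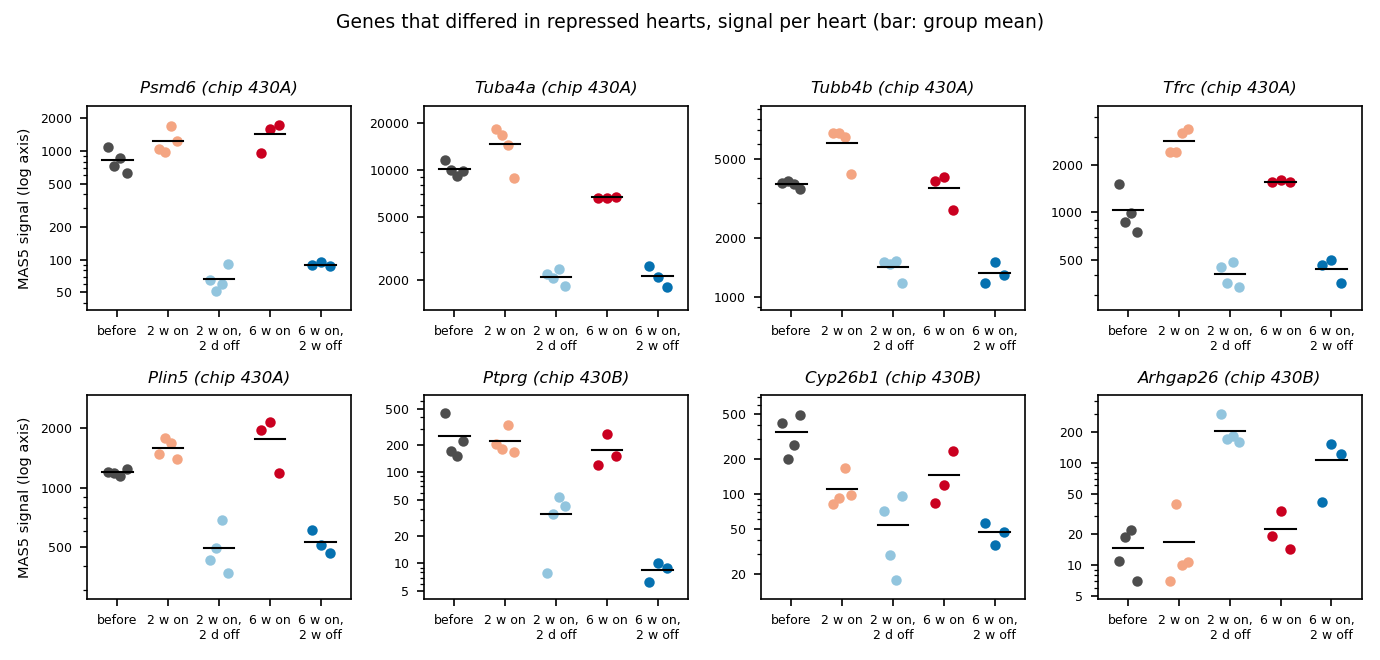
Signal per heart on a log axis for 8 probe sets in all 5 groups, 18 hearts, with a bar at each group mean. The hearts at 2 weeks off lie with those at 2 days off, below all control and induced hearts for Psmd6, Tuba4a, Tubb4b, Tfrc, Plin5 and Ptprg, and above them for Arhgap26, while Cyp26b1 at 2 days off (17.8 to 97.0) overlaps with 2 weeks on (81.8 to 168).

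In other falls repressed heart 1 stood apart. Nfia, a transcription factor, read 926, 352, 694 and 604 in control and 6.25, 207 and 263 in repressed hearts (difference -2.58), and Nipbl, a loader of cohesin, read 602, 346, 591 and 566 and 6.91, 229.7 and 265 (-2.28). Ddx6, an RNA helicase of mRNA storage granules, read 1470.5, 988, 1219 and 948 and 28.4, 404 and 446 (-2.19), and the kinase Stk38 read 121, 112, 121 and 118 and 1.52, 51.3 and 33.0 (-1.93). In each of the 4, heart 1 was many times lower than hearts 2 and 3, which were themselves below every control. Without heart 1 the differences were -1.34, -1.02, -1.32 and -1.28 for Nfia, Nipbl, Ddx6 and Stk38. Nfia was called on 1 of 4 probe sets, the others at -0.49 to 0.39, Nipbl on 1 of 5, the others at -0.52 to -0.05, and Stk38 on 1 of 3, the others at 0.09 and 0.17, while Ddx6 was called on 2 of 4. The Nfia, Nipbl and Stk38 calls ended without the control hearts with Xist signal, that of Nfia also without control heart 1 or 3 and that of Nipbl without any 1 control heart, while all 4 held without repressed heart 1. From the arrays of the compared groups alone the Nfia, Nipbl, Ddx6 and Stk38 calls ended. The chromatin remodeller Atrx was at -1.55, on 1 of 7 probe sets, and not called without repressed heart 1.

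Further called genes by the naming rule were the long noncoding RNA Malat1 (-1.84), the ribosome-associated Abcf1 (-1.73, on 1 of 5 probe sets) and Rabepk (-1.99) among the falls. Among the rises were Togaram2 (1.97) and Bckdk, a kinase that inhibits breakdown of branched-chain amino acids (1.99). The Bckdk call was on 1 of 2 probe sets, a dim one, and the brighter had a mean of 1222 in control and 1308 in repressed hearts (0.10, adjusted p = 0.788). Rabepk was called on 1 of 3 probe sets and Malat1 on 3 of 7. Of 21 translation genes 3 were lower, Eef1d at -0.76, Eef1b2 at -0.52 and Npm1 at -0.43, where 7 had been lower at 6 weeks on. Over all genes 1.21% were lower at 2 weeks off and 8.14% at 6 weeks on. The mitochondrial chaperonin Hspe1 was at -0.90, catalase, Cat, at -0.64, the immediate early gene Btg2 at -0.70 and the water channel Aqp1, abundant in endothelium, at -0.73. Other probe sets of Npm1, Cat and Btg2 were not called, at 0.12, -0.29 and 0.01. Mcam, higher by 0.93, was the sole call among 14 markers of smooth muscle and pericytes. Their median was 0.03, with 8 above 0 and 6 below. Among these genes, Abcf1 and Hspe1 were called under all 19 alternatives. The Eef1d call ended with a common median, where 0 translation genes were called, and that of Eef1b2 there, without repressed heart 3 and without the control hearts with Xist signal. Each of the others ended without those control hearts and without at least 1 of the repressed hearts. Those of Rabepk, Togaram2, Bckdk, Npm1, Cat and Btg2 also ended from the arrays of the compared groups alone.

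Several groups of genes had 0 calls in either direction: 17 ion channels (median -0.15), 14 genes of intercalated discs and gap junctions (-0.05), 18 of the unfolded protein response (-0.01), 19 of antigen presentation and interferon response (0.13) and 10 that control pyruvate dehydrogenase (0.13). With a common median 1 gene of the unfolded protein response and 1 that controls pyruvate dehydrogenase were called, and the medians of the unfolded protein response and intercalated disc lists were 0.05 and 0.01. Of all genes 2.71% were called, so 0 calls in lists of this size, or in the shorter marker lists below, is near that share. With 3 and 4 hearts these counts do not show that the genes were at baseline. Among markers of other cells, endothelium had 1 lower of 21, erythroid, nerve and mesothelial markers had 0 calls of 4, 6 and 6, and lymphocyte and granulocyte markers 0 of 6. Of the lymphocyte and granulocyte markers 9 of the 15 on chip 430A were below the filter, Cd3e, Cd4 and S100a8 included.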

How the data were processed

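The authors deposited 1 linear intensity per probe set and array, a MAS5 signal per the submitters' processing notes (version not given in the sources used here). RNA was isolated with Ultraspec-II and labelled with biotin, per the labels. The 2% trimmed means of all arrays of a chip were within 0.006% (chip 430A, 500.2) and 0.00369% (chip 430B, 122.5) of their mean, so the signals were used as deposited. Control probe sets (64 per chip) and probe sets with a mean under 20% of the trimmed mean were left out, which kept 15565 of 22690 on chip 430A and 17519 of 22575 on chip 430B. Symbols came from the platform annotation: 20380 probe sets had 1 symbol, 691 several and 1555 none (chip 430A), or 14661, 245 and 7605 (chip 430B).

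Log2 signals, with the offset, were fitted per chip in R 4.3.3 using limma 3.58.1, with lmFit, 1 mean per group, and eBayes with trend. The step was tested on simulated data. In gene lists the brightest probe set stood for a gene, on chip 430A where present. Genes were named if called, without overlap and among the 10 largest rises and falls on chip 430A or the 6 on chip 430B, or as up to 4 called members of a list by adjusted p. Akt1, the hypertrophy list, Xist, Y-linked genes and 15 genes that earlier results showed changed during induction were named whatever they did. Other called members of the matrix, clock, tubulin and oxidative phosphorylation lists, and uncalled clock genes, were named after their values were seen. The members and lists were chosen with earlier results of these data known, so the lists are no independent evidence.

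Alternatives were other offsets, filters, scalings, quantile normalization, array weights, an Xist indicator, the Actb ratio as a covariate, a replicate block, the compared arrays alone, and each heart left out in turn. Array medians ran from 187.8 to 231.6 in the control hearts on chip 430A. With scan dates not given in the sources used here, no batch was tested. The number of arrays limits precision. Replicate numbers did not pair the hearts: deviations of same-numbered hearts correlated at 0.14, 0.07 and -0.04 on chip 430A and on chip 430B at 0.09, 0.09 and -0.02. Over 100 probe sets on both chips, 17 of 18 hearts matched their own number best. Promoter sequences came from RefSeq, GRCm38.p6.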

Additional observations from a re-analysis of the deposited data

Results flagged for a closer look

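The same 4 control hearts were checked for 136 quantities, and in 16 of these 1 value lay far from the other 3. Chance alone sets apart about 1 in 20 where values are normal and independent. These quantities share hearts and many were chosen by their values, so the count cannot be set against that rate. Control heart 1 was apart for Thbs4 (189), Col5a1 (168), Malat1 (2168), Cthrc1 (53.9), Ppp1r3c (4752) and Mybpc2 (2220.2), and for each of these except Malat1 the shift was towards the repressed hearts. Control heart 2 was apart for Sh3gl3 (168), Hip1r (688) and Nipbl (346). Control heart 4 was apart for Dbp (2446), Atrx (102), Akt1 (652), Col3a1 (6247) and the atrial genes Nppa (26347) and Myl4 (16377). Control heart 3 was apart for Ptgds (3968).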

How the results depend on the processing

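Of 96 called probe sets that are named, 35 were called under every alternative, 45 without the control hearts with Xist signal and 64 without repressed heart 1. For 2 weeks off against before induction, chip 430A gave 551 calls, against 328 with a common median, 200 without the hearts with Xist signal, 216 with an Xist indicator, 907 with array weights and 341 from the compared arrays alone. Leaving out 1 heart gave 259 to 526. Chip 430B gave 300, against 76 without the hearts with Xist signal, 85 with the indicator and 29 from the compared arrays alone, and 107 to 397 leaving out 1 heart. For 6 weeks on, chip 430A gave 3337 (1598, 1726 and 1890 under the same 3 settings, 2356 to 3606 leaving out 1 heart) and chip 430B 1024 (517, 565 and 461, and 736 to 888). Against 6 weeks on, chip 430A gave 2972 (1260 with the Actb covariate, 843 from the compared arrays alone, 1809 to 2905 leaving out 1 heart) and chip 430B 633 (322, 90, and 412 to 551). The cause of these shifts was not tested, except that settings leaving out hearts have fewer samples. Heart 3 at 6 weeks on decided the lowest of those counts, 1809 and 412.

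Higher matrix members numbered 18, against 8 without the hearts with Xist signal and 11 without repressed heart 1. Lower clock members numbered 6 against 3 without the hearts with Xist signal, and lower tubulins 4 against 2 there and 2 without repressed heart 1. These list alternatives were chosen after seeing the data. With a replicate block the counts for 2 weeks off were 476 and 237, and matrix members 15, though the numbers did not pair the hearts.

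Signs turned only in uncalled genes: Myh7 (-0.62 without the hearts with Xist signal, -0.62 with the indicator, -0.02 with the Actb covariate, -0.07 with the block, and -0.34 to 0.59 leaving out 1 heart, below 0 without control heart 3 at -0.11, control heart 4 at -0.16 or repressed heart 1 at -0.34), Acta1 (-0.14 and -0.14 in the Xist settings), Myom2 (-0.41 to 0.03 leaving out 1 heart, above 0 without repressed heart 3) and Irs1 (0.00 with array weights, -0.12 to 0.02 leaving out 1 heart, above 0 without control heart 1).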
